A study of Homo sapiens with 16 samples.

Results

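Keratins are the intermediate filament proteins of epithelial cells, and 10 of their genes were followed in breast epithelial cells during 45 h of HER2 kinase inhibition. The genes were KRT5, KRT14, KRT15 and KRT17 (called basal here), KRT6A, KRT6B and KRT16 (activation), and KRT7, KRT8 and KRT18 (simple). Of 18190 gene symbols on the array, these 10 were taken with every probe that carries them, whatever its values. This gave 11 probes of 20589 on the array, 2 of them for KRT18 and 1 for each other gene. Of the 11 probes, 10 were among the 12321 probes that were tested, which had a detection p-value under 0.05 on at least 3 arrays. The probe for KRT14 passed that limit on 1 array only and was left out of the main tests.

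MCF10HER2 cells carry a stably expressed transgene for HER2, a receptor tyrosine kinase, in MCF10A, a nontransformed human mammary epithelial line. They were cultured without serum and without insulin but with epidermal growth factor, and CP724,714, a small molecule that inhibits the HER2 kinase, was given at 1 µM when the medium was changed. RNA of parallel cultures was hybridised to 16 Illumina human Ref-8 arrays, 1 untreated at 0 h and 15 treated at 3 h intervals from 3 to 45 h. No time point has a replicate, and no later culture without the inhibitor was analysed here, so hours in the inhibitor cannot be told apart from hours after the medium change. The untreated cells carried the HER2 transgene too. Each test takes its spread from how far arrays lie from a fitted course, and the value of a single array has no error of its own.

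A keratin filament is built from pairs of 1 type II and 1 type I chain. Among these genes KRT5, KRT6A, KRT6B, KRT7 and KRT8 encode type II chains, and KRT14, KRT15, KRT16, KRT17 and KRT18 encode type I chains. KRT5 and KRT14 are the classical pair of the basal layer of stratified epithelia and of basal breast cells. KRT15 is another type I keratin of basal cells, and KRT17 is found in basal and appendage cells and is induced on injury. KRT6A, KRT6B and KRT16 are low in resting epidermis and are induced in wounded or rapidly dividing keratinocytes. KRT8 and KRT18 are the pair of simple epithelia such as luminal breast cells, and KRT7 is a type II keratin of ducts and glands.

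The arrays differed in ways that touch the keratin values. The deposited intensities were background corrected and quantile normalized, and signals are given on the log2 scale. Upper quartiles of intensity were 397 at 9 h and 418 at 18 h, and 553 to 804 on the remaining arrays. The background was 135.9 to 148.9 on the 8 arrays from 0 to 21 h and 164.5 to 173.9 on the 8 arrays from 24 to 45 h, so the earlier and later time points are also 2 sets of arrays. Several keratins stepped at 12, 24 and 36 h, which cut the course into sets of 4 time points, and neither division is named in the labels. The epithelial marker EPCAM was detected on all 16 arrays (12.14 to 12.63), whereas CDH1 (7.97 to 8.12) lay near the detection limit and was detected on 15. TP63, from the same list, also lay near that limit (7.88 to 8.17) and was detected on 14. SFN, another epithelial marker, was detected on all 16 and fell by 1.67 ± 0.22 (SE, limma adjusted p = 4.14e-05). The fibroblast genes COL1A1, COL1A2, PDGFRA and PDGFRB, the endothelial genes VWF and CDH5 and the hormone receptor genes ESR1 and PGR were detected on 0 of the 16 arrays. GATA3 (8.05 to 8.25) and FOXA1 (8.09 to 8.67), the other genes of the hormone receptor cell list, were detected on all 16 at low signals, and COL3A1 was detected on 2. The brightest DCN probe (8.13 to 8.46) and PECAM1 (7.97 to 8.36), from the fibroblast and endothelial lists, were detected on all 16 at low signals. Of the immune list CD68 was detected on all 16 (8.88 to 11.08), CD3E on 1 and 1 of 3 PTPRC probes on 7. Of the myoepithelial list ACTA2 (11.11 to 12.14) and OXTR (8.41 to 9.81) were detected on all 16 and MYH11 and CNN1 on 0. The part of these genes in the keratin results was not tested. The 2 probes for ERBB2, the gene of HER2, passed the detection limit on 7 arrays and on 1, which gives no check of the transgene.

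**Figure D1:**
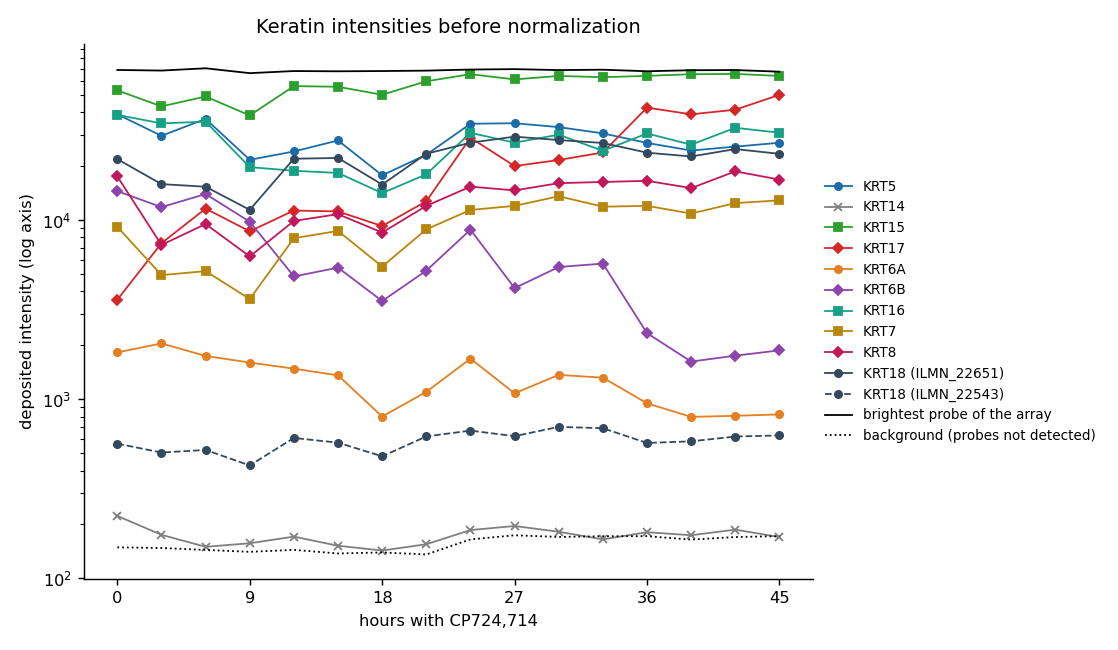
Deposited intensity of the 11 keratin probes on each array, before any normalization (log axis), against hours with CP724,714. The solid black line is the brightest probe of each array and the dotted line is the median of the probes with a mean detection p-value above 0.5. KRT15 lies close to the brightest probe from 24 h on, KRT14 lies on or somewhat above the background line, and KRT17 goes from 3595 to 50055.

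The keratins did not move as a group. KRT17 rose and KRT6B and KRT6A fell by amounts that place them among the largest changes on the array, whereas the simple keratins KRT7 and KRT8 and the basal keratin KRT15 rose less and KRT5 fell slightly. Of the 10 tested probes, 9 depended on time in a spline fit (limma F-test, adjusted p under 0.05), and 41.9% of all tested probes did so. A straight line in time rose past the threshold for 4 probes and fell for 3, where it rose for 12.9% of all tested probes and fell for 11.5%. A rising line need not mean a higher end: KRT8, 1 of the 4, was 13.90 at 0 h and 13.82 at 45 h. The fitted linear change over 45 h ran from -3.60 for KRT6B to 2.90 for KRT17, with a median of 0.07 over the 10 probes and of 0 over all tested probes. The median fitted range was 0.78 for the keratin probes and 0.26 for all tested probes. As RNA came from whole cultures, fewer cells that make a keratin and less of its RNA per cell cannot be told apart.

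**Figure D2:**
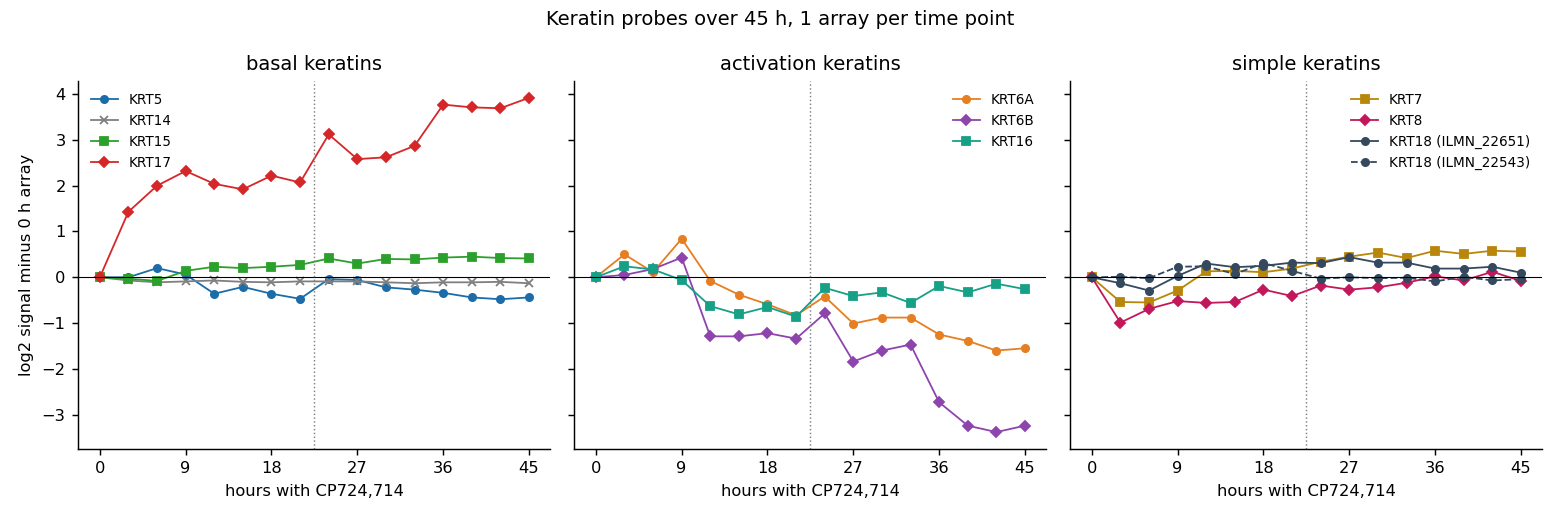
Log2 signal of each keratin probe minus its value on the 0 h array, against hours with CP724,714, in 3 panels for basal, activation and simple keratins with 1 point per array. The dotted line separates the arrays of 0 to 21 h from those of 24 to 45 h. KRT17 ends 3.92 above its 0 h value, KRT6B ends at -3.24, and the simple keratins stay within about 1 log2 unit of it.

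Among the basal keratins, KRT17 had the third largest linear rise of the 12321 tested probes. From 11.51 on the log2 scale at 0 h it went to 12.94, 13.51 and 13.83 on the next 3 arrays. It then lay between 13.43 and 13.73 from 12 to 21 h, between 14.09 and 14.63 from 24 to 33 h and between 15.20 and 15.43 from 36 to 45 h. All 15 treated arrays were above the untreated one, which is a single array. The signal at 45 h was 15.1 times that at 0 h. The linear change was 2.90 ± 0.32 (SE over 16 arrays, limma adjusted p = 5.33e-06), and the mean of the treated arrays was 2.68 ± 0.27 (SE) above the 0 h array (limma adjusted p = 2.85e-06). Here and in the other comparisons of the treated mean with 0 h, the untreated arm is 1 array, which is assumed to vary about its level as the treated arrays do, so the p-value holds only under that assumption. Steps at 12, 24 and 36 h were -0.28, 1.05 and 0.90, which sum to 1.67, and the remaining steps sum to 2.24. When arrays were scaled to a common median instead, the signal was 11.58 at 0 h and 12.41 at 3 h, a smaller first step of the same direction. That scaling moved the median tested probe by -0.21 at 3 h and by -0.17 at 9 h relative to quantile normalization. Bright keratin probes moved further: at 3 h KRT5 was 14.99 under quantile normalization and 14.47 under median scaling, and KRT8 was 12.91 and 12.37.

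KRT15 was already bright at 0 h and rose by little. Its lowest, median and highest log2 signals were 15.47 at 6 h, 15.83 and 16.00 at 39 h. It was below its 0 h value of 15.55 at 3 and 6 h and above it on the other 13 treated arrays. A linear rise of 0.51 ± 0.06 was fitted (SE, limma adjusted p = 9.25e-06), and the treated mean was 0.28 ± 0.06 (SE) above the 0 h array (limma adjusted p = 0.0028). The intensity of this probe exceeded 60000 on each of the 8 arrays from 24 to 45 h, where the brightest probe of an array reached 67421 to 69667. The part of the scanner's upper limit in these values was not tested. With median scaling the linear change was 0.42 (limma adjusted p = 0.110), and with cyclic loess it was 0.27 (limma adjusted p = 0.0797).

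KRT5 fell over the course. Its lowest, median and highest log2 signals were 14.51 at 42 h, 14.74 and 15.19 at 6 h. Over 45 h the line gave -0.47 ± 0.12 (SE, limma adjusted p = 0.00696), and the 45 h signal was 1.35-fold below that at 0 h. The fall was not continuous: the step was -0.42 at 12 h and 0.43 at 24 h. Under median scaling the linear change was -0.32 (limma adjusted p = 0.158). The treated mean was -0.22 ± 0.13 (SE) from the 0 h array, which was not past the threshold (limma adjusted p = 0.264).

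KRT14, the usual type I partner of KRT5, was not well above background. Its intensity was 223 at 0 h with a detection p-value of 0.014 and 143 to 196 on the 15 treated arrays, none of which passed the detection limit. The log2 signal was 8.0 at 0 h and 7.87 to 7.93 afterwards. This is 1 probe whose sequence was not used here, so the values describe the probe. KRT14 was left out of the main tests. Without the detection filter, which lets this probe in, 4 keratin probes were called lower in the linear fit, against 3 with it. As its values lie near background, no change of KRT14 is read from that count. Against the 0 h array the treated mean was higher for 2 basal probes, KRT15 and KRT17, and lower for none, where 8.62% of all tested probes were higher.

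The activation keratins KRT6A and KRT6B fell, and KRT16 fell in the arrays of 0 to 21 h and was higher again from 24 h on. KRT6B had the third largest linear fall of all tested probes and the sixth largest fitted range. Its log2 signal was 13.59 at 0 h and 13.64, 13.77 and 14.02 at 3, 6 and 9 h. It was 12.25 to 12.37 from 12 to 21 h, 11.75 to 12.80 from 24 to 33 h and 10.21 to 10.86 from 36 to 45 h. The 3 arrays of 3 to 9 h were above the untreated array and the other 12 treated arrays were below it. The signal at 45 h was 9.43-fold below that at 0 h. The fitted line gave -3.60 ± 0.36 over 45 h (SE, limma adjusted p = 1.84e-06), and the treated mean was -1.52 ± 0.41 (SE) from the 0 h array (limma adjusted p = 0.0143). The steps at 12 and 36 h were -1.72 and -1.26, and the signal at 24 h was 0.55 above that at 21 h. These 3 steps sum to -2.43 and the remaining ones to -0.81. Under median scaling the values at 3 and 9 h were 13.11 and 13.62 against 13.70 at 0 h, so whether the early arrays lay above 0 h depends on the scaling.

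KRT6A had the 27th largest linear fall. The untreated array had a log2 signal of 10.46 and the 9 h array 11.30. Signals then went to 9.63 at 21 h and, after 10.04 at 24 h, to a lowest value of 8.86 at 42 h and 8.91 at the end. As for KRT6B, the first 3 treated arrays were above the untreated one and the other 12 below it. The line fell by 2.09 ± 0.23 (SE, limma adjusted p = 4.03e-06), and the 45 h signal was 2.94-fold below that at 0 h. The difference between the treated mean and the 0 h array was -0.63 ± 0.25 (SE, limma adjusted p = 0.0861). The 9 h value comes from a dim array. With median scaling it was 10.76 against 10.45 at 0 h, and the 3 h value of 10.26 was then below 0 h.

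KRT16, the usual type I partner of KRT6A, had no linear change past the threshold (-0.25 ± 0.23, SE, limma adjusted p = 0.485), but it depended on time (spline limma adjusted p = 0.0138). The linear result turned with array weights, which gave a rise past the threshold (0.51, limma adjusted p = 0.0344). Log2 signals were 14.98 on the untreated array, 15.22 at 3 h, 14.12 to 14.35 from 12 to 21 h and 14.42 to 14.84 from 24 to 45 h. The 4 arrays of 12 to 21 h were lower than all 12 others, except that under median scaling the 33 h array (14.13) was lower than each of them. The 21 h array was 1.81-fold below the 0 h array. The treated mean was -0.33 ± 0.16 (SE) from the 0 h array (limma adjusted p = 0.165). In all, 1 activation probe, KRT6B, had a treated mean below the 0 h array past the threshold, where 10.3% of all tested probes did.

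KRT6A, KRT6B and KRT6C are near-identical genes, and KRT14, KRT16 and KRT17 are closely similar, so a probe may read more than 1 of them. Probe sequences were not used here. A probe listed under the symbol KRT6C, which has also been used for KRT6A, had log2 signals between 9.90 and 12.27 and fell by 1.87 ± 0.24 (SE, limma adjusted p = 2.38e-05). A probe listed as KRT6E, now named KRT6C, had signals between 14.47 and 15.59 and fell by 0.91 ± 0.16 (SE, limma adjusted p = 4.61e-04). KRT6A and KRT6B had correlated signals (Pearson r = 0.94 over 16 arrays, and 0.75 over the 15 successive differences), while r of KRT16 was 0.34 with KRT6A and 0.31 with KRT6B. These coefficients describe probes that share arrays and time and carry no test.

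The simple keratins KRT7 and KRT8 rose over the course from a low point at 3 to 6 h that lay below the untreated array. KRT8 had a log2 signal of 13.90 at 0 h and 12.91 at 3 h, a 1.98-fold difference. It was 13.21 to 13.38 from 6 to 15 h, 13.49 to 13.78 from 18 to 33 h and 13.82 to 14.02 from 36 to 45 h. It lay below the untreated array on 13 of 15 treated arrays and above it at 36 and 42 h. The treated mean was lower than the 0 h array (-0.32 ± 0.11, SE, limma adjusted p = 0.0438), while the linear change was positive (0.66 ± 0.17, SE, limma adjusted p = 0.007). Signals at 0 and 45 h differed by -0.08 only. With the array set as a block the linear change was 0.39 (limma adjusted p = 0.555), no longer past the threshold. Under median scaling the 3 h value was 12.37 against 13.98 at 0 h, a larger difference.

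KRT7 showed the same early dip and ended higher. Signals of 12.34, 12.33 and 12.59 followed the 0 h value of 12.88 in the first 9 h. They were 12.99 to 13.07 from 12 to 21 h and 13.22 to 13.46 from 24 h on. The 3 arrays of 3 to 9 h were below the untreated array and the other 12 above it. The linear change was 1.05 ± 0.15 (SE, limma adjusted p = 6.06e-05), the 194th largest rise. With the array set (0 to 21 h or 24 to 45 h) as a block it was 0.83 (limma adjusted p = 0.104), no longer past the threshold. The treated mean was 0.21 ± 0.11 (SE) from the 0 h array (limma adjusted p = 0.211). KRT7 and KRT8 had r = 0.82 over the 16 arrays and 0.65 over the successive differences.

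The 2 probes for KRT18 gave different results. The bright probe, ILMN_22651, started at 14.22 and ended at 14.32 on the log2 scale, with its lowest value of 13.93 at 6 h and its highest of 14.66 at 27 h. It depended on time (spline limma adjusted p = 0.00372) but had no linear change past the threshold (0.31 ± 0.13, SE, limma adjusted p = 0.0863). The dim probe, ILMN_22543, was detected on all arrays but stayed between 8.53 and 8.93. It passed neither the spline fit (limma adjusted p = 0.0874) nor the linear fit (-0.16 ± 0.10, SE, limma adjusted p = 0.272), but with array weights it had a fall past the threshold (-0.31, limma adjusted p = 0.0106). Its r with the bright probe was 0.12, so no direction is given for KRT18.

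**Figure D3:**
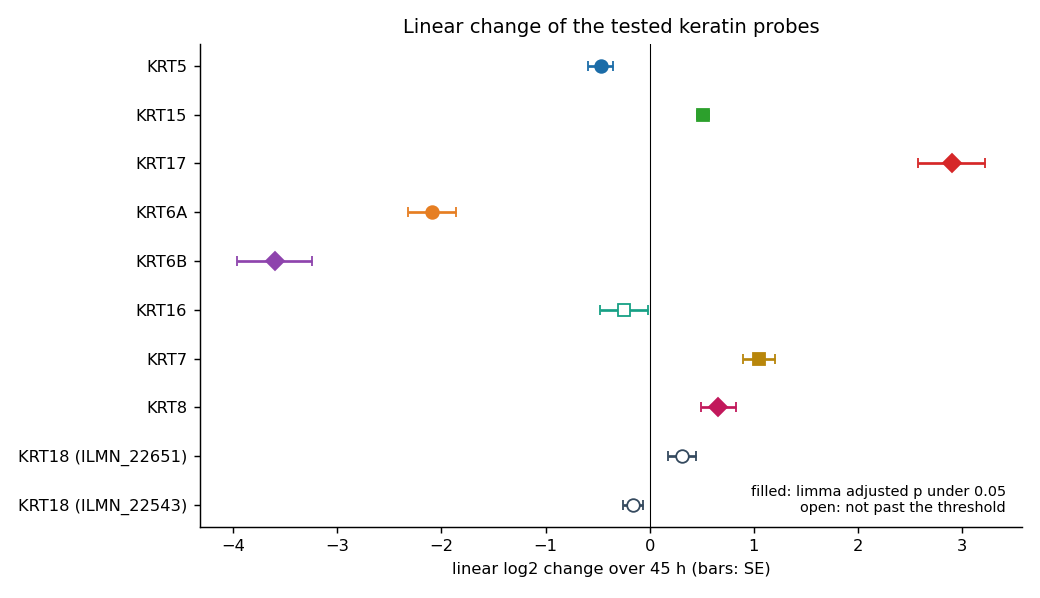
Fitted linear change of the 10 tested keratin probes over 45 h (x axis, log2 units, bars show the SE from the limma fit over 16 arrays). Filled points are past an adjusted p of 0.05: KRT17 (2.90), KRT7 (1.05), KRT8 (0.66) and KRT15 (0.51) rose, and KRT6B (-3.60), KRT6A (-2.09) and KRT5 (-0.47) fell, whereas KRT16 and both KRT18 probes (open) were not past it.

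The median linear change was 0.51 for the 3 tested basal probes, -2.09 for the 3 activation probes and 0.48 for the 4 simple probes. The basal median hides opposite directions of KRT5 and KRT17. Calls were 2 higher and 1 lower for basal, 0 higher and 2 lower for activation, and 2 higher and 0 lower for simple keratins. Changes were also set beside the order of the genes on the genome. KRT16 and KRT17 lie next to each other on the RefSeq assembly GRCh38.p14 with 0 coding genes between them, and KRT6A lies next to KRT5. The linear changes were 2.90 for KRT17 and -0.25 for KRT16, and they were -2.09 for KRT6A and -0.47 for KRT5. KRT8 and KRT18 are neighbours as well.

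The earlier and the later arrays were fitted with a slope each, given as the log2 change over 21 h. Both slopes came from 1 fit over all 16 arrays, in which the 2 sets share an estimate of the spread. In that fit 4 keratin probes rose in the arrays of 0 to 21 h, where 14.6% of all tested probes did, and 4 fell, where 15.6% did. KRT17 rose by 1.50 (limma adjusted p = 0.0161), and KRT7, KRT18 (ILMN_22651) and KRT15 rose by 0.59, 0.49 and 0.34. The slopes of those that fell were -1.82 for KRT6B, -1.16 for KRT16, -1.13 for KRT6A and -0.56 for KRT5. In the arrays of 24 to 45 h the same fit called 0 keratin probes rising, where it called 2.88% of all tested probes, and KRT6B (-2.58, limma adjusted p = 0.00227) and KRT5 (-0.47, limma adjusted p = 0.0239) fell, where 2.19% did. KRT17 (1.27, limma adjusted p = 0.101) and KRT6A (-1.06, limma adjusted p = 0.0506) had later slopes close to their earlier ones but were not past the threshold. The calls depend on this shared fit. When each set was fitted alone, with changes scaled to 45 h, the only rise past the threshold within 0 to 21 h was that of KRT15 (0.73, limma adjusted p = 0.0231), while KRT17 (3.20, limma adjusted p = 0.0659), KRT7 (1.26, limma adjusted p = 0.126) and the bright KRT18 probe (1.05, limma adjusted p = 0.0525) were not past it. KRT6A lost its fall in these arrays (-2.43, limma adjusted p = 0.0721). Within 24 to 45 h alone KRT17 (2.73, limma adjusted p = 0.00158) and KRT8 (0.59, limma adjusted p = 0.0447) rose. KRT6A fell there (-2.27, limma adjusted p = 1.87e-04), as did KRT6B, KRT5 and the bright KRT18 probe (-0.55, limma adjusted p = 0.0194).

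A test of the difference between the slopes passed for 3 of the 10 probes, and for 24.8% of all tested probes. KRT16 had -1.16 in the earlier and 0.12 in the later arrays, a difference of 1.28 ± 0.25 (SE, limma adjusted p = 0.00225). The bright KRT18 probe had 0.49 and -0.26, a difference of -0.75 ± 0.17 (SE, limma adjusted p = 0.00503). KRT15 had 0.34 and 0.06, a difference of -0.27 ± 0.09 (SE, limma adjusted p = 0.0363), and its later values are those above an intensity of 60000. For KRT6A, KRT6B and KRT17 the differences were 0.07 ± 0.43, -0.76 ± 0.60 and -0.22 ± 0.62 (SE). These SEs are too large to call the slopes of any of them alike.

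**Figure D4:**
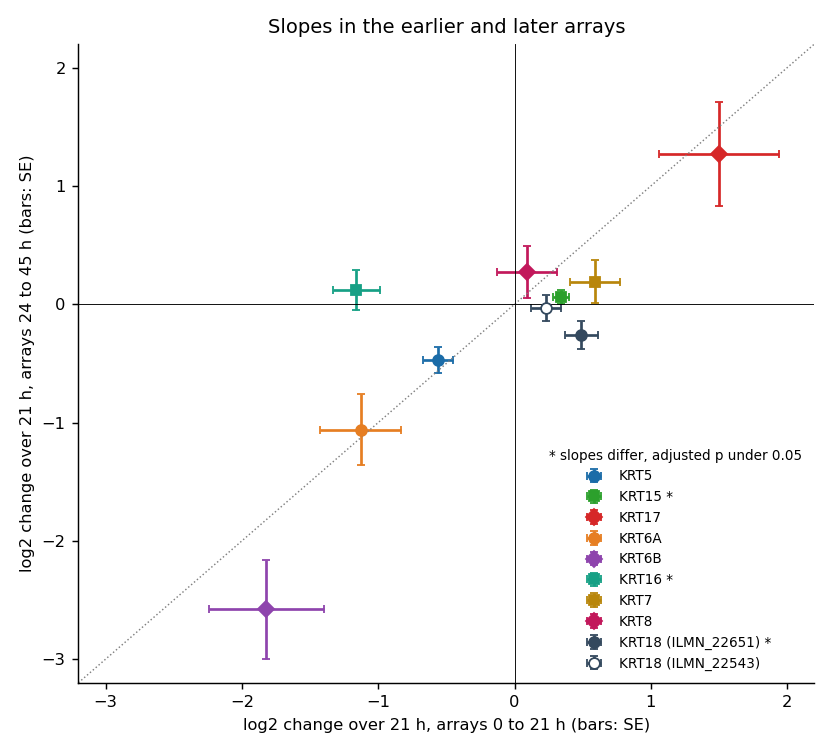
Log2 change over 21 h fitted in the arrays of 0 to 21 h (x axis) and of 24 to 45 h (y axis) for the 10 tested keratin probes, with SE bars in both directions. Equal slopes lie on the dotted line. KRT16, KRT15 and the bright KRT18 probe, with an asterisk in the legend, have slopes that differ past the threshold, and KRT6A (-1.13 and -1.06) and KRT5 (-0.56 and -0.47) lie on or near the line.

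Steps at 12, 24 and 36 h were larger than the other steps for some of the probes. The root mean square step at these 3 borders was 1.27 for KRT6B against 0.36 at its other steps, 0.82 against 0.50 for KRT17 and 0.53 against 0.18 for KRT16. For KRT8 it was 0.16 against 0.33, because its largest step was at 3 h. The median over the 10 keratin probes was 0.31 at the borders and 0.18 elsewhere, and over all tested probes it was 0.11 in both. Within the sets of 4 time points KRT6B averaged 13.76 ± 0.19, 12.30 ± 0.05, 12.16 ± 0.45 and 10.44 ± 0.29 (SD, n = 4 arrays at successive hours), and KRT17 averaged 12.95 ± 1.02, 13.57 ± 0.12, 14.31 ± 0.25 and 15.28 ± 0.10 (SD, n = 4). With these sets as a block in the fit, no linear change of a keratin probe was past the threshold. KRT17 then had 2.86 (limma adjusted p = 0.592) and KRT6B -0.79 (limma adjusted p = 0.770). Time and set of arrays cannot be told apart at these borders.

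As a first filter the study kept genes of MCF10HER2 cells with a 1.7-fold change or more at any time point, with no baseline named. Its call of differential expression also needed a ratio to MCF10A cells, which was not computed here. Against the 0 h array, a baseline chosen here, 5 of the 10 tested probes met such a first filter. Of these, 2 were above (where 10.9% of all tested probes were) and 4 below (9.47%), with KRT6A counted in both directions. KRT17 was at least 1.7-fold above 0 h on all 15 treated arrays, from 3 h on. KRT6B was that far below 0 h on 12 arrays from 12 h on. KRT6A was below on 8 arrays from 21 h on and above at 9 h only. KRT16 met it on 2 arrays, first at 15 h, and KRT8 on 1, at 3 h. KRT5, KRT7, KRT15 and both KRT18 probes did not meet it. These calls depend on the scaling, as 6 probes met the criterion under median scaling. KRT7 was then 13.01 at 0 h and 11.76 at 3 h, more than 1.7-fold lower. KRT6A was then 10.45 at 0 h and 10.76 at 9 h, less than 1.7-fold above.

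Because type II and type I chains pair, the log2 ratio of the signals of 2 partner probes within each array was followed. The ratio is free of any factor common to both probes on an array, and it shows unequal change but not which partner moved. A scaling can still move 2 probes unequally, and the ratios were followed under quantile normalization only. At 18 h KRT15 was 15.78 under quantile normalization and 16.23 under median scaling, and KRT5 was 14.63 and 14.72. KRT6B over KRT17 fell by 6.51 ± 0.46 (SE) over 45 h, with -7.16 at 45 h relative to 0 h. KRT6A over KRT16 fell by 1.84 ± 0.30 (SE), after a highest value of 0.89 above 0 h at 9 h and with a lowest of -1.46 at 42 h. KRT7 over KRT18 (bright probe) had 0.74 ± 0.10 (SE), and KRT8 over KRT18 had 0.35 ± 0.21 (SE). KRT5 could not be set against KRT14, which was at background. Against the type I basal keratins that were measured, KRT5 over KRT15 had -0.98 ± 0.15 and KRT5 over KRT17 -3.38 ± 0.35 (SE), and KRT6B over KRT16 had -3.35 ± 0.43 (SE). These 3 pairs were added after the values were seen. As the KRT15 intensity was above 60000 on all 8 later arrays, near the brightest probe, the ratio to KRT15 rests on values close to the scanner's upper limit, whose part in it was not tested. The pairs with the smallest fitted changes were those of the simple keratins. Their departures from the single 0 h array were not all smaller, as KRT8 over KRT18 reached -0.87 and KRT5 over KRT15 reached -0.90. No test was run on the ratios.

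**Figure D5:**
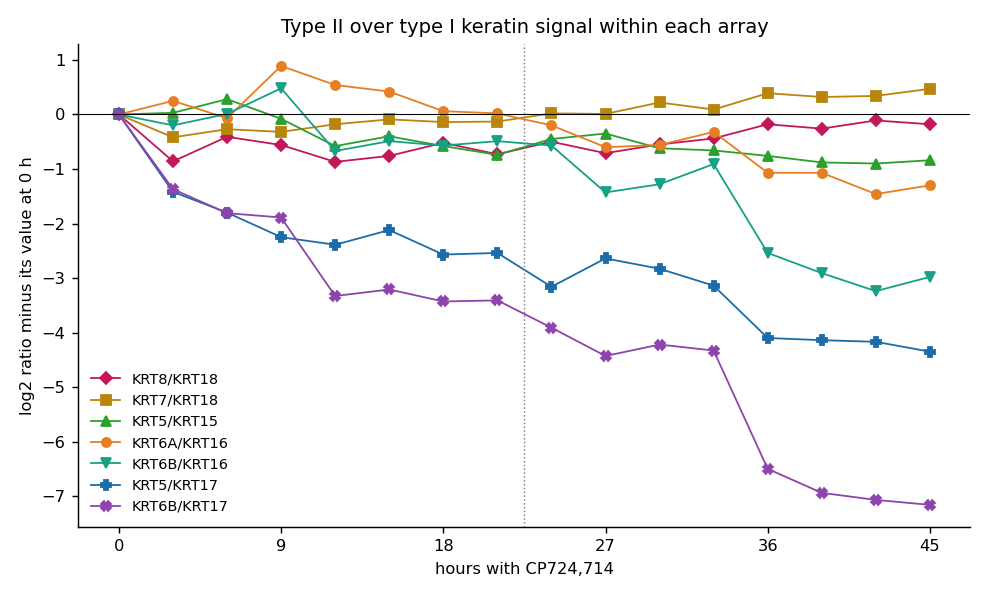
Log2 ratio of a type II over a type I keratin signal within each array, minus its value at 0 h, against hours with CP724,714, with 1 point per array. The ratio of KRT6B to KRT17 reaches -7.16 at 45 h and that of KRT5 to KRT17 -4.35, while KRT8 to KRT18 stays between -0.87 and 0 and KRT7 to KRT18 between -0.42 and 0.47.

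Other keratins on the array comprised 46 probes for 44 genes, of which 28 probes were detected on no array and 16 were tested. Of these 16, 7 depended on time, a share near the 41.9% of all tested probes. In the linear fit 0 rose and 5 fell, beside 12.9% and 11.5% of all tested probes, and the median linear change was -0.01. Of those that fell, KRT9 (7.95 to 8.14) and KRT34 (7.88 to 8.56, detected on 9 arrays) lay near the detection limit. Besides the KRT6C and KRT6E probes the largest fall past both thresholds was that of KRT10, a type I keratin of differentiating epidermis, by 0.81 ± 0.22 (SE, limma adjusted p = 0.0111). KRT19, a type I keratin of simple epithelia, lay at 8.06 to 8.46. Genes that anchor keratin filaments at desmosomes and hemidesmosomes gave 22 tested probes for 17 genes, of which 8 depended on time (41.9% of all tested probes did), 4 rose (12.9%) and 4 fell (11.5%), with a median linear change of -0.03. ITGB4, the integrin subunit that binds filaments at hemidesmosomes, rose by 1.51 ± 0.30 (SE, limma adjusted p = 0.00135), and PPL, the desmosomal plakin periplakin, by 1.47 ± 0.21 (SE, limma adjusted p = 9.02e-05). DSG3, a desmosomal cadherin, fell by 1.40 ± 0.31 (SE, limma adjusted p = 0.00255). Of 6 tested probes for other intermediate filament genes, 5 depended on time, 0 rose and 2 fell beside the same shares of all tested probes, with a median of -0.06: LMNA, which encodes lamins A and C, by 0.60 ± 0.16 (SE, limma adjusted p = 0.00985) and SYNM, which encodes synemin, by 0.22 ± 0.04 (SE, limma adjusted p = 8.85e-04). That SYNM probe lay near the detection limit, at 7.99 to 8.3. The other tested SYNM probe, at 7.92 to 7.99, had -0.01 ± 0.02 (SE, limma adjusted p = 0.868). VIM, the filament gene of mesenchymal cells, lay at 8.0 to 8.35 on all 16 arrays.

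The tested probes of other genes whose course was most like that of the leading keratin of each class were found by Pearson r over the 16 arrays. For KRT17 they were AMY1C (r = 0.967, and 0.83 over the 15 successive differences), PAM (0.964 and 0.83) and ACTG1 (0.96 and 0.85). AMY1C encodes a salivary amylase, PAM an enzyme that amidates peptides and ACTG1 the cytoplasmic gamma actin. For KRT6B they were PRPS1 (0.974 and 0.85), PPP1R14B (0.969 and 0.73) and OSBPL10 (0.964 and 0.81). PRPS1 encodes a phosphoribosyl pyrophosphate synthetase. For KRT7 they were CYB5D2 (0.967 and 0.89), GNG10 (0.967 and 0.79) and QARS (0.966 and 0.80), the last of which encodes glutaminyl-tRNA synthetase. Their linear changes were smaller than those of KRT17 and KRT6B, at 1.20 to 1.45 for the first group and -1.30 to -1.25 for the second. In the third group they were 0.56 for CYB5D2, 0.83 for GNG10 and 1.19 for QARS, beside 1.05 for KRT7. All these r values were picked as the highest among the tested probes and carry no test.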

How the data were processed

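Probe intensities and detection p-values of Illumina human Ref-8 v2 beadchips were used as deposited. The authors deposited each intensity without normalization or background subtraction, and each detection p-value compares a probe with the negative controls of its array. The scanner software is not given in the sources used here. Intensities were background corrected and quantile normalized with neqc (limma 3.58.1, R 4.3.3; offset 16) and set on the log2 scale. Probes with a detection p-value under 0.05 on at least 3 arrays were tested with limma and Benjamini-Hochberg adjustment over all 12321: a natural spline in hours (4 degrees of freedom), a linear term, the treated mean against the 0 h array, and slopes within 0 to 21 h and 24 to 45 h. Fits were tested on simulated data with independent noise and no shifts between sets of arrays, so that test does not cover the steps seen here. Groups came from the labels. Members and gene lists were chosen with earlier results of these data known. Every keratin probe is named, and per other list up to 3 probes with the largest linear change past both thresholds, plus the 3 probes most correlated with the leading keratin of each class; other probes and the markers are named as descriptions. The number of arrays limits the precision. Alternatives were other scalings, background corrections, filters, spline flexibility, array weights, array sets and each array left out; leaving out the 9 h and 18 h arrays and blocking sets of 4 time points were chosen after seeing the data. No sequence is printed.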

Additional observations from a re-analysis of the deposited data

Results flagged for a closer look

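The slope over 21 h differed between the earlier (0 to 21 h) and the later (24 to 45 h) arrays for 3 keratin probes, by a limma test of the difference itself. This is 3 of 10, near the 24.8% of all tested probes, and it was 1 with median scaling and 2 to 4 with each array left out. The difference, later minus earlier, was 1.28 for KRT16 (limma adjusted p = 0.00225), -0.75 for the bright KRT18 probe (limma adjusted p = 0.00503) and -0.27 for KRT15 (limma adjusted p = 0.0363). The earlier and later time points are also 2 sets of arrays with different background, so time and array set cannot be told apart here. For KRT15 the later values lie above an intensity of 60000, near the brightest probe of each array.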

How the results depend on the processing

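Each time point had 1 array, so no paired analysis was possible and single values have no error. Counts of keratin probes called were 9 time-dependent, 4 higher, 3 lower, 4 for treated against 0 h, 5 by fold and 3 with unequal slopes. Leaving out each array in turn gave 7 to 9, 4 to 5, 3 to 3, 3 to 5, 4 to 5 and 2 to 4. Median scaling left 2 for treated against 0 h and 1 with unequal slopes, and gave 6 by fold. Probes called higher were 2 with the array set as a block, 1 within 0 to 21 h and 2 within 24 to 45 h. A 2-fold criterion gave 3 probes. With sets of 4 time points as a block 0 were higher and 0 lower. KRT17 (2.84 to 3.15), KRT6B (-4.72 to -3.29) and KRT6A (-2.35 to -1.69) kept direction and call under the other scalings, corrections, filters, weights and the array set block. Within 0 to 21 h KRT17 (3.20, limma adjusted p = 0.0659) and KRT6A (-2.43, limma adjusted p = 0.0721) lost their calls. KRT7 and KRT8 lost their calls with the array set as a block (0.83 and 0.39) and within 0 to 21 h (1.26 and 0.19). KRT5 lost its call with array weights (-0.30) and median scaling (-0.32). KRT15 lost its call with median scaling (0.42) and cyclic loess (0.27). Within 24 to 45 h KRT15 (0.14) and KRT7 (0.41) were not past the threshold. Linear changes (scaled to 45 h) reversed for the dim KRT18 probe (0.06 with median scaling, 0.22 with the array set block, 0.50 within 0 to 21 h, 0.28 with sets of 4), for the bright one (-0.07 with array weights, -0.55 within 24 to 45 h with limma adjusted p = 0.0194, -0.12 with sets of 4), for KRT16 (0.51 with array weights, a call at limma adjusted p = 0.0344, 0.26 within 24 to 45 h), and with sets of 4 for KRT7 (-0.14) and KRT8 (-0.16). The causes were not tested.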
